A study of Mus musculus with 78 samples.

Results

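The lungs of mice left to sleep for 6 h after lights on were compared with the lungs of mice left to sleep for 3 h. Hours of sleep are hours of this opportunity, and the paper states that undisturbed mice were active for part of it. The members are all arrays labelled spontaneous sleep (SS) at 6 hr (7 arrays) or at 3 hr (9 arrays), which makes 16 of the 78 lung arrays of the study, and all 35556 probe sets of these arrays were tested. Each array was hybridised with the RNA of 1 mouse. All mice were young adult C57BL/6 J males (C57BL\6 in the labels), kept in a 12 h light and 12 h dark cycle, and food was given only in the dark phase. The mice of both groups were left undisturbed from lights on. The rest of the study consisted of baseline mice taken at lights on (9 arrays), of mice after 9 or 12 h of sleep, and of mice kept awake for 3, 6, 9 or 12 h from lights on by gentle handling.

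Sleep was judged from the absence of beam breaks in the cage, not from brain recordings. In sleeping mice, 3 further hours of sleep and 3 further hours of the day pass together, and their parts in a difference cannot be told apart within these 2 groups. Whole lung was measured, so that fewer cells of a type and less RNA per cell cannot be told apart either. The values are log2 intensities, and differences are differences of log2 intensity, 6 h minus 3 h. Array medians lay between 6.54 and 6.77 in the 16 arrays.

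The label of each sample carries an array number, and under the alignment used here 3 of the 16 numbers stand against their labels. In the listed order of the samples the numbers rise, apart from array 81. The labelled conditions were laid in their listed order along the array numbers of the whole series. Of the numbers absent from the series, the lowest was given no place and the others kept theirs. The labels do not state this choice. With it, 15 of the 78 arrays fell on the place of a neighbouring condition. Arrays 61 and 78, labelled 3 h of sleep, fell on 6 h of sleep, and array 66, labelled 6 h of sleep, fell on 3 h of sleep deprivation. Array 80, labelled 6 h of sleep, fell past the last place. Its number could not be set against its label, and it was kept. In a check on the 200 probe sets that best separated the 9 groups, with each array left out in turn, arrays 61 and 78 were nearest to the mean of the 6 h sleeping mice and array 66 was nearest to the mean of the mice deprived for 3 h. Of the remaining 13 arrays of the 2 groups, 11 were nearest to their own group and arrays 57 and 75, labelled 3 h of sleep, were nearest to baseline. With group means taken without the arrays in doubt, all 13 were nearest to their own group. The check drew on the same expression values as the tests below, so it lends those tests no independent support. Conditions were used as labelled and no array was moved to another group. Results are given for the 16 arrays as labelled and for the 13 arrays left without arrays 61, 66 and 78.

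Lung cells, like most cells of the body, hold a circadian clock of their own. Clock or its relative Npas2 pairs with Arntl (also called Bmal1), and the pair binds the E-box, a short DNA motif, to switch on the Per and Cry genes, whose proteins in turn block the pair. Ror proteins activate and the Rev-erb proteins, one of which is Nr1d2, repress a further motif, here called RRE, which keeps Arntl, Npas2 and Nfil3 out of step with the Per genes. Hlf and Tef activate and Nfil3 represses one more motif, the D-box. In nocturnal rodents the arm that holds Arntl and Npas2 falls during the light phase in peripheral organs, and the arm that holds the Per genes rises.

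Promoter windows of 300 bases (250 before and 50 after the annotated start) were taken from RefSeq, build GRCm38.p6, for 18 of the 21 genes on the clock lists. They are shown for 5 genes, picked by hand among those with a match and from both arms of the clock, with the motif in capitals. Both strands were searched, and a palindromic match counted as 1 site. The E-box CACGTG occurred in 7.15% of all 32851 windows, the D-box TTATGTAA or TTACGTAA in 1.06% and the RRE TAGGTCA in 2.61%. Counted by gene, the shares were 8.09%, 1.23% and 2.97% of 27025 genes. Among the 18 clock genes, 5 had an E-box in a window, 1 a D-box and 2 an RRE. The genes with an E-box that are not shown were Cry1, Per1 and Tef. Among genes that passed below between 6 h and 3 h of sleep, Npas2, Hlf and Nr1d2 had none of these motifs. Bhlhe40, Per2 and Wee1, which passed as well, had no window. Nfil3 and Ciart, which are shown, did not pass in that comparison. The windows of Arntl (chr7:113207261-113207560, plus strand) and Nfil3 (chr13:52980990-52981289, minus strand) show the RRE. The window of Per3 (chr4:151044616-151044915, minus strand) shows 2 D-boxes, that of Ciart (chr3:95882179-95882478, minus strand) 3 E-boxes and that of Bhlhe41 (chr6:145865371-145865670, minus strand) 1 E-box. A match describes the letters only and is no evidence that a factor bound there.
Arntl: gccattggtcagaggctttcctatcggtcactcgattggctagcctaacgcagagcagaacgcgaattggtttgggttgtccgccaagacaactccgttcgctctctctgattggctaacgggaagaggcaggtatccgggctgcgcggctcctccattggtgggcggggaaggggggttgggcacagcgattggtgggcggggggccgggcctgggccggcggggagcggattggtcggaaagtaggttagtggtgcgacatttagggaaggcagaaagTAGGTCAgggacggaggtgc
Nfil3: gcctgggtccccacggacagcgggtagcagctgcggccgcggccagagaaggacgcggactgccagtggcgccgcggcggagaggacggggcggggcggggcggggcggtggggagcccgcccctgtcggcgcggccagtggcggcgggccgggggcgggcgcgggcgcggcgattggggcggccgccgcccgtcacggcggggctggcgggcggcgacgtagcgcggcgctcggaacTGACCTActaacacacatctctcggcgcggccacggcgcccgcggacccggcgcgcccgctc
Per3: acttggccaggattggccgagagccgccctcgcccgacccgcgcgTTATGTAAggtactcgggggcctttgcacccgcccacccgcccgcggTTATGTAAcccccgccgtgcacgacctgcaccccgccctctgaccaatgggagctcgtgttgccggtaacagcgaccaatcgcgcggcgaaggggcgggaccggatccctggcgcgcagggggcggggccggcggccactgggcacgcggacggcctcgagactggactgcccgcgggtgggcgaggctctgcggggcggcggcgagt
Ciart: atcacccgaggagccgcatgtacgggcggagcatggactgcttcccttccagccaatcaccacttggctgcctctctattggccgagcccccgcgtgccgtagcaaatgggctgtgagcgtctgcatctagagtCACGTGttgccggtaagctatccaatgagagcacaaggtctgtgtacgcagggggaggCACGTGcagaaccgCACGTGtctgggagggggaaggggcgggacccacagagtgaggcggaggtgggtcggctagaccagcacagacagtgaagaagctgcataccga
Bhlhe41: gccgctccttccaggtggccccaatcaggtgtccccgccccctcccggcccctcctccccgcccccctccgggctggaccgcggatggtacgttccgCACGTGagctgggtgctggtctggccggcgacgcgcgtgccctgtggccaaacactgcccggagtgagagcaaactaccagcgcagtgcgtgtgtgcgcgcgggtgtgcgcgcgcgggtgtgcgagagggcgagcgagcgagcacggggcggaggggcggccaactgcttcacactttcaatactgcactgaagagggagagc

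Using all 16 arrays as labelled, no probe set differed between 6 h and 3 h of sleep at the false discovery rate of 1% used by the study (0 of 35556, 0% called by limma with Benjamini-Hochberg adjustment), nor at 5%. Without adjustment, 2641 probe sets had p under 0.05 (7.43%). Without arrays 61, 66 and 78, 23 probe sets passed at 1% (0.0647%), of which 13 were higher at 6 h (0.0366%) and 10 lower (0.0281%), and 4643 had an unadjusted p under 0.05 (13.1%). The 23 probe sets held 17 named genes, and 9 of these 17 stood on the clock lists. The other 6 probe sets had no single gene symbol. They included the largest rise among the 23, a difference of 2.08 (SE 0.19, adjusted p = 0.000253). All 3 arrays had to be left out. With only arrays 61 and 66 left out, or any other pair of the 3, 0 probe sets passed. With each array centred on its own median, 26 probe sets passed, 9 of them higher (34.6% against 56.5% without centring).

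Npas2, the partner of Arntl, showed the largest difference of all genes in the 13 arrays. Its log2 intensity on the 3 h arrays was 7.28 at the lowest, 9.33 at the median and 9.63 at the highest, and on the 6 h arrays 7.13, 7.27 and 9.61. The 16 values fell into 2 bands with nothing between. Of the 3 h arrays 7 lay between 9.14 and 9.63, while arrays 61 (7.28) and 78 (7.52) lay beside the 6 h arrays. Of the 6 h arrays 6 lay between 7.13 and 7.40, while array 66 lay at 9.61. As labelled, Npas2 was 1.36 lower at 6 h on the log2 scale, from 8.95 ± 0.89 (SD, n = 9) to 7.59 ± 0.90 (n = 7), and did not pass (difference -1.36, SE 0.42, adjusted p = 0.666). Without the 3 arrays it fell by 2.14, a 4.41-fold decrease, from 9.39 ± 0.17 (n = 7) to 7.25 ± 0.11 (n = 6; SE 0.08, adjusted p = 2.98e-08). Outside these groups, array 81, labelled 12 h of deprivation, read 7.06, and arrays 56 and 74, labelled baseline and 6 h of deprivation with numbers that fall on 3 h of sleep, read 9.33 and 9.23.

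Arntl, the other member of the activating pair, repeated these bands. Its 3 h arrays read 7.06, 8.86 and 9.18 at the lowest, median and highest, and its 6 h arrays 6.95, 7.43 and 9.04. The low 3 h arrays were again 61 (7.06) and 78 (7.42), and the high 6 h array was 66. The difference was -1.01 with all arrays (SE 0.34, adjusted p = 0.666). Without the 3 arrays Arntl fell by 1.63, or 3.1-fold, and no 3 h array (8.51 to 9.18) overlapped a 6 h array (6.95 to 7.49; SE 0.12, adjusted p = 1.57e-05).

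The remaining activators and RRE-linked factors had smaller differences. Nfil3, the repressor of the D-box, had 3 h arrays of 6.12, 6.93 and 7.39 and 6 h arrays of 5.82, 6.41 and 7.77, the last being array 66. The difference was -0.39 as labelled (SE 0.24) and -0.78 in the 13 arrays (SE 0.14, adjusted p = 0.045, short of the threshold), where the groups did not overlap. Clock, with values of 9.86 to 10.54 over the 16 arrays, differed by -0.05 as labelled and by -0.13 in the 13 arrays (adjusted p = 0.592). Rora, the activator of the RRE, was 0.18 and 0.25 above its 3 h level (adjusted p = 0.207 in the 13 arrays). Arntl2, Cry1 and Rorb differed by 0.11, -0.02 and -0.04 in the 13 arrays, each within 2 SE of 0, and for Cry1 and Rorb the sign turned between the 2 sets of arrays (0.05 and 0.03 as labelled). Of the 8 genes of this list, 2 passed in the 13 arrays, both lower (0.0425% of all genes by their brightest probe set), and none as labelled.

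The Per genes encode repressors of the clock, and Per3 and Per2 rose in the 13 arrays. Per3 read 7.87, 7.97 and 9.27 on the 3 h arrays and 8.03, 9.24 and 9.47 on the 6 h arrays at the lowest, median and highest. Arrays 61 (9.27) and 78 (9.24) again lay with the 6 h arrays and array 66 (8.03) with the 3 h arrays. Per3 was 0.83 higher at 6 h as labelled (SE 0.25, adjusted p = 0.666) and 1.29 higher in the 13 arrays, a 2.45-fold rise (SE 0.07, adjusted p = 6.51e-07). Per2 read 6.72, 7.22 and 8.59 at 3 h and 7.89, 8.44 and 8.66 at 6 h. It was 0.90 higher as labelled (SE 0.25) and 1.26 higher in the 13 arrays (SE 0.15, adjusted p = 0.00292), where its 3 h arrays ended at 7.58 and its 6 h arrays began at 7.92. Per1, which also responds to feeding, stress and light, was less uniform. Its 3 h arrays spread between 8.02 and 9.89 and its 6 h arrays between 8.83 and 9.89, and its difference of 0.98 in the 13 arrays did not pass (SE 0.21, adjusted p = 0.113).

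The other repressors also had positive differences. Nr1d2 (Rev-erb beta) read 8.96, 9.22 and 10.21 at 3 h and 8.94, 10.13 and 10.25 at 6 h. In the 13 arrays its 6 h values lay between 10.09 and 10.25, apart from the 3 h values of 8.96 to 9.36, and it rose by 1.01, or 2.01-fold (SE 0.07, adjusted p = 1.57e-05, against 0.62 and SE 0.22 as labelled). A second, dim probe set of Nr1d2 (mean 3.63) differed by 0.05. Bhlhe41 (Dec2), a repressor that competes for the E-box, read 7.41, 7.55 and 8.89 at 3 h and 7.39, 8.50 and 8.82 at 6 h. It rose by 1.05 in the 13 arrays (SE 0.08, adjusted p = 3.8e-05, against 0.59 and SE 0.26 as labelled), and its relative Bhlhe40 (Dec1) by 0.55 (SE 0.07, adjusted p = 0.00297). Ciart, which blocks the activating pair and carries the 3 E-boxes printed above, differed by 0.60 (SE 0.10, adjusted p = 0.0372), and its second probe set by 0.63. Cry2 differed by 0.30 (SE 0.07, adjusted p = 0.145). Neither passed.

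Of the clock output genes, Hlf and Wee1 rose in the 13 arrays. Hlf read 7.49, 7.73 and 8.78 on the 3 h arrays and 7.44, 8.61 and 8.82 on the 6 h arrays. In the 13 arrays, where 7.78 at 3 h and 8.54 at 6 h were the nearest values, it rose by 1.03, or 2.04-fold (SE 0.07, adjusted p = 1.35e-05, against 0.62 and SE 0.22 as labelled). Wee1, the kinase that holds cells before mitosis and is driven by the clock, rose by 0.66 (SE 0.08, adjusted p = 0.00378). Tef, the relative of Hlf, differed by 0.62 (SE 0.09, adjusted p = 0.0168) without passing. Tsc22d3, induced by glucocorticoids, and Usp2, a deubiquitinating enzyme, differed by 0.25 (SE 0.15) and 0.30 (SE 0.21).

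In all, 7 of the 13 genes on the list of clock repressors and outputs passed in the 13 arrays, all higher (0.0478% of all genes), and none as labelled. All 13 had a positive difference in both sets of arrays. The median of the list was 0.44 as labelled and 0.66 in the 13 arrays, beside -0.01 over all 18820 genes in both. In the 13 arrays, groups did not overlap for 9 of these 13 genes (0.781% of all genes). The same held for 3 of the 8 genes on the list of activators and RRE-linked factors. As labelled the groups overlapped for all 21 (0.0106% of all genes did not).

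**Figure D1:**
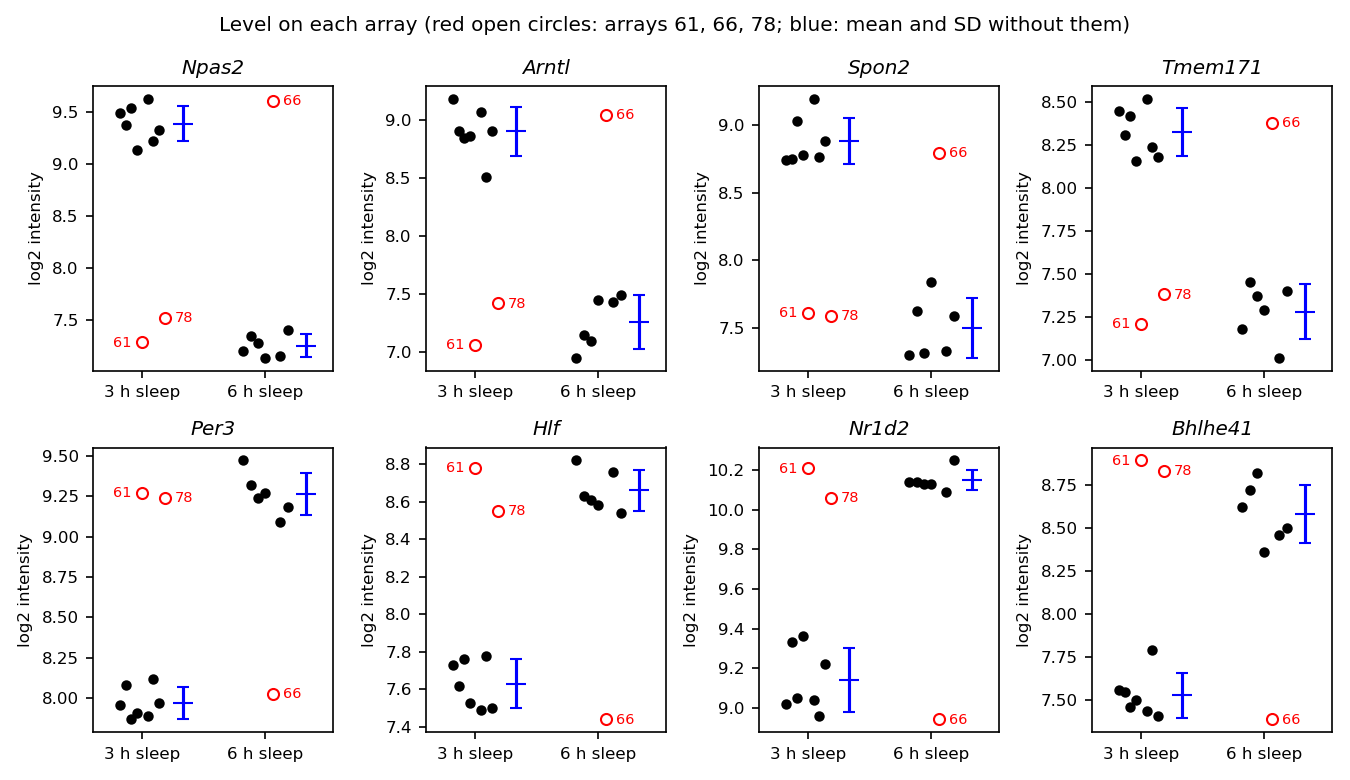
Log2 intensity (vertical axis) of 8 genes on each array labelled 3 h or 6 h of sleep. Black points are the 13 arrays left without arrays 61, 66 and 78, which are the red open circles. Blue marks give mean and SD of the black points. In every panel arrays 61 and 78 lie with the 6 h arrays and array 66 lies with the 3 h arrays.

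**Figure D2:**
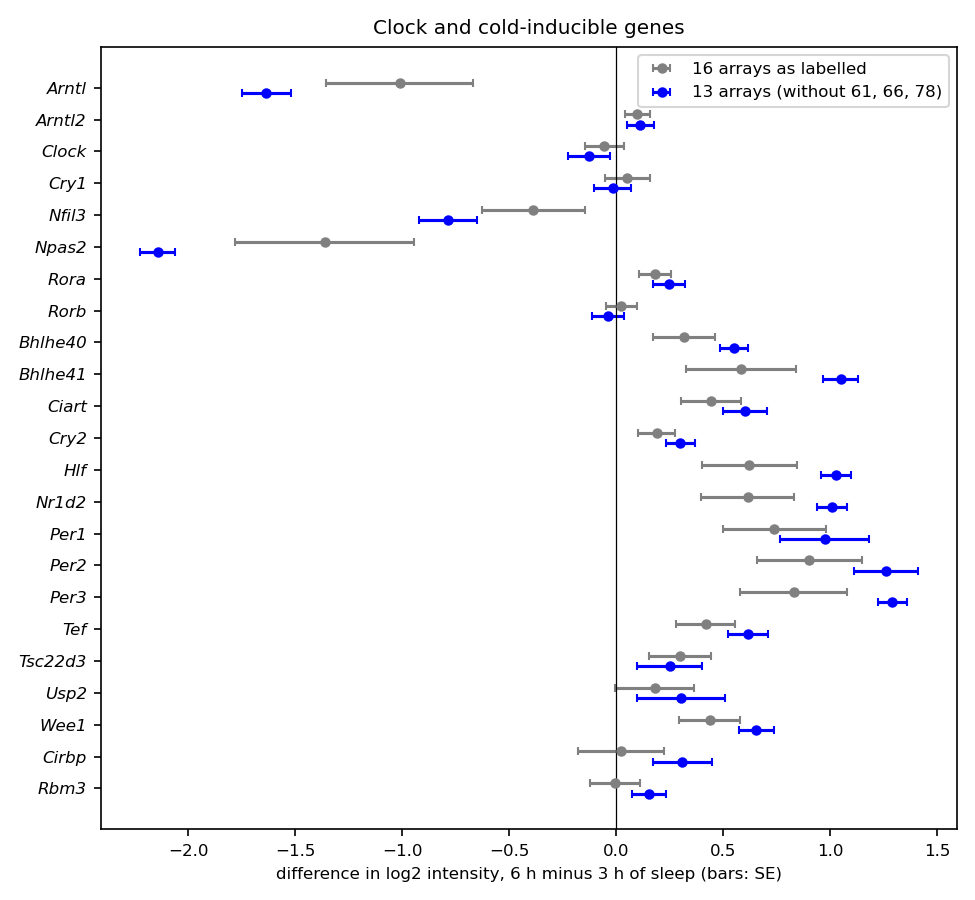
Difference in log2 intensity between 6 h and 3 h of sleep (horizontal axis, bars are SE) for the 21 genes of the clock lists and for Cirbp and Rbm3, with all 16 arrays (grey) and with 13 arrays (blue). Npas2 (-2.14) and Per3 (1.29) bound the blue range, and the grey bars are wider for every gene that passed.

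The array numbers form runs, and both groups lie in 2 of these, one up to array 66 and one from array 67. Each of the 9 clock genes that passed in the 13 arrays kept its sign within both runs. For a gene whose groups did not overlap in the 13 arrays, this sign was fixed in advance. Of those arrays, the run from array 67 held arrays 75, 76 and 77 at 3 h and arrays 79 and 80 at 6 h. Npas2 differed by -2.15 in the first run and by -2.11 in the other, Arntl by -1.78 and -1.37, Hlf by 1.001 and 1.06, and Nr1d2 by 0.95 and 1.10. The Per genes differed more in size, with 1.49 and 0.84 for Per2 and 1.25 and 0.47 for Per1. Of the clock genes that did not pass, 4 turned sign between the runs. These were Usp2 (0.61 and -0.21), Tsc22d3 (0.46 and -0.13), Cry1 (0.11 and -0.26) and Rorb (-0.13 and 0.08). With the run as a block, 19 probe sets passed, all of them among the 23.

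Npas2, Per3, Hlf, Arntl, Nr1d2 and Bhlhe41 passed in each of the 13 fits that left out 1 further array. Per2 passed in 8, Bhlhe40 in 6 and Wee1 in 4 of the 13. The number of probe sets that passed in these fits ran from 11 to 26, and it fell to 11 without array 63 or 64, to 12 without array 57, 58 or 62 and to 13 without array 77.

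Outside the clock lists, 8 named genes passed in the 13 arrays. Spon2, a secreted protein of the extracellular matrix that takes part in innate defence, read 7.59, 8.76 and 9.19 on the 3 h arrays and 7.30, 7.59 and 8.79 on the 6 h arrays, and its low and high exceptions were arrays 61, 78 and 66. It fell by 1.37 in the 13 arrays, or 2.59-fold (SE 0.10, adjusted p = 3.23e-05, against -0.91 and SE 0.26 as labelled). Tmem171, a membrane protein, read 7.21, 8.24 and 8.52 at 3 h and 7.01, 7.37 and 8.38 at 6 h, and fell by 1.05 (SE 0.08, adjusted p = 4.19e-05). Rasl11a, a small GTPase-like protein, fell by 1.06 (SE 0.13, adjusted p = 0.00303). None of the 3 genes had overlapping groups in the 13 arrays.

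The other 5 changes were smaller. Dtx4, a ubiquitin ligase of the Deltex family, fell by 0.58 (SE 0.06, adjusted p = 0.0015). Ccnjl, a cyclin-like protein, fell by 0.87 (SE 0.12, adjusted p = 0.0067), and Leo1, a subunit of the PAF1 complex that accompanies RNA polymerase, fell by 0.44 (SE 0.06, adjusted p = 0.0067). A second probe set of Leo1, dimmer at a mean of 4.46, differed by -0.24 and did not pass. Mthfd1l, a mitochondrial enzyme of one-carbon metabolism, rose by 0.66 (SE 0.08, adjusted p = 0.00302) and Zfp346, a zinc finger protein that binds double-stranded RNA, by 0.49 (SE 0.06, adjusted p = 0.00387). In 13 of 13 leave-one-out fits Spon2, Tmem171 and Dtx4 passed, whereas Mthfd1l passed in 6, Rasl11a and Zfp346 in 5, and Leo1 and Ccnjl in 2.

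The genes with the smallest p as labelled were of another kind. They were S100a9, a calcium-binding protein that fills the cytosol of neutrophils, and Lilra6 (PirA), a receptor of myeloid cells, and neither passed (adjusted p = 0.312 and 0.522). S100a9 read 7.31, 8.29 and 8.55 on the 3 h arrays and 6.90, 7.21 and 7.53 on the 6 h arrays. The groups overlapped only through array 61 (7.31), and array 78 (8.29) and array 66 (7.17) lay with their labelled groups. Array 66 also lay close to the mean of the mice deprived for 3 h, given below, where its number falls. The difference was -0.90 as labelled (SE 0.16) and -0.98 in the 13 arrays (SE 0.14, adjusted p = 0.0119), a 1.97-fold lower level that stayed just short of the threshold.

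The list of neutrophil and monocyte genes shared this direction. Of its 19 genes, none passed, 12 were lower at an unadjusted p under 0.05 as labelled (4.24% of all genes) and 10 in the 13 arrays (6.58%). The medians were -0.31 and -0.33. S100a8, the partner of S100a9, differed by -0.68 as labelled (SE 0.14) and -0.67 in the 13 arrays (SE 0.16, adjusted p = 0.146). Csf3r, the receptor for granulocyte colony-stimulating factor, differed by -0.62 and -0.57, Mmp9, a protease of neutrophil granules, by -0.54 and -0.60, and Cxcr2, the receptor that draws neutrophils to chemokines, by -0.49 and -0.50. Of the granule genes of immature neutrophils, Ltf and Camp were nearer to 0 in the 13 arrays, at -0.15 and -0.21. Ngp, another of them, was not (-0.49, SE 0.24). Ccr2, a monocyte receptor, differed by 0.01.

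As a mean over its genes, relative to the 16 arrays, the neutrophil and monocyte list lay between -0.06 and 0.53 on the 3 h arrays (median 0.15) and between -0.38 and -0.12 on the 6 h arrays (median -0.18). The groups did not overlap, with or without arrays 61 (-0.002), 78 (0.14) and 66 (-0.38). F10, a list member that the liver also makes, went the other way and read 10.70 and 9.28 on arrays 79 and 80, against 7.35 to 8.83 elsewhere. Those 2 arrays also had high liver transcripts. In the run up to array 66 the median of the list in the 13 arrays was -0.30 and in the run from array 67 it was -0.54.

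Transcripts on the lists for liver, skeletal muscle and fat cells varied from mouse to mouse. The mean of the 15 liver genes ran from -1.58 to 3.23 on the 3 h arrays and from -2.06 to 4.44 on the 6 h arrays, and Alb, which encodes serum albumin, from 8.66 to 13.10 and from 6.92 to 13.22. The median difference of the liver list in the 13 arrays was -1.86 in the first run and 4.75 in the other, so its direction turned between the runs. Skeletal muscle genes ran from -1.61 to 1.97 and fat cell genes from -1.54 to 1.84 over the 16 arrays. Neither the source of these transcripts nor their part in the results above was tested. Lung identity was plain on all arrays, since Sftpc, surfactant protein C of alveolar type 2 cells, lay between 13.15 and 13.35.

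The cytosolic chaperones and the folding factors of the endoplasmic reticulum, which answer to heat and unfolded protein, were level between the groups apart from array 66. The mean of the 35 chaperone genes lay between -0.11 and 0.05 on the 3 h arrays, between -0.08 and 0.06 on 6 of the 6 h arrays, and at 0.43 on array 66. The 33 folding genes lay between -0.07 and 0.03 on all arrays except array 66, at 0.185. Hsph1, the Hsp110 chaperone, read 8.24 to 8.87 on the 3 h arrays, 8.23 to 9.00 on 6 of the 6 h arrays and 10.48 on array 66, and its difference went from 0.22 (SE 0.24) to -0.10 (SE 0.11) when the 3 arrays were left out. No gene of either list passed in either set of arrays. The smallest p as labelled belonged to Cct8, a subunit of the CCT chaperonin, at 0.15 (SE 0.06; 0.18 in the 13 arrays), and to Herpud1, which helps to clear proteins from the endoplasmic reticulum, at 0.17 (SE 0.05; 0.20 in the 13 arrays), both with adjusted p = 0.666 as labelled.

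Of the RNA-binding proteins that rise in the cold, neither passed. Cirbp read 9.67, 10.13 and 10.62 on the 3 h arrays and 9.05, 10.26 and 10.51 on the 6 h arrays, the 9.05 being array 66. It differed by 0.02 as labelled (SE 0.20) and by 0.31 in the 13 arrays (SE 0.14, adjusted p = 0.363). Rbm3 differed by -0.003 and 0.15 (SE 0.08, adjusted p = 0.43), and its lowest value of the 16, 11.19, also came from array 66. Its 3 probe sets lay between 0.15 and 0.17 in the 13 arrays.

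Among the other lists no gene passed. Each median is given as labelled and then in the 13 arrays. The metabolic medians were 0.15 and 0.04 for glucocorticoid-induced genes, 0.10 and 0.04 for lipid synthesis, 0.09 and 0.005 for fasting and lipid oxidation, and 0.02 and -0.02 for the respiratory chain. These 4 lists thus lay nearer to 0 without the 3 arrays, and the respiratory chain turned sign. In the 13 arrays all 4 were positive in the run up to array 66 and negative in the run from array 67. Errfi1, a brake on epidermal growth factor receptors, led the glucocorticoid list at 0.27 (SE 0.07; 0.29 in the 13 arrays), and Pdk1, which shuts pyruvate out of the mitochondrial cycle, led the hypoxia and glycolysis list at 0.23 (SE 0.09; 0.30 in the 13 arrays). Ier5, an immediate early gene, was at -0.32 (SE 0.09; -0.38) and Nupr1, an Atf4 target, at -0.27 (SE 0.08; -0.37).

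The 20 cholesterol synthesis genes had a median of 0.19 as labelled and of 0.24 in the 13 arrays, 18 of them had a positive difference in each, and 3 or 5 were higher at an unadjusted p under 0.05 (1.7% and 4.19% of all genes). Pmvk, an enzyme of the mevalonate pathway, had the smallest p and differed by 0.29 in both. The list mean was highest on arrays 79 (0.655) and 80 (0.28), and the other 6 h arrays lay between -0.131 and 0.042, within the span of the 3 h arrays (-0.219 to 0.024) or just above it. Arrays 79 and 80 also had the highest liver levels (4.438 and 3.475), and the part of liver transcripts in this list was not tested. Its median in the 13 arrays was 0.07 in the run up to array 66 and 0.417 in the run from array 67, which holds both arrays.

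Medians of immune and inflammatory lists were small, and some changed sign without the 3 arrays. They were -0.10 as labelled and -0.11 in the 13 arrays for NF-kB inflammation, -0.09 and -0.06 for interferon-induced genes, -0.13 and -0.09 for NK and cytotoxic cells, and -0.05 in both for lung macrophages. They rose from -0.07 to 0.03 for B cells, from -0.07 to 0.004 for class II presentation and from 0.02 to 0.12 for T cells, of which 15 of 18 genes then lay above 0. Tnfaip2, a gene induced by tumour necrosis factor, differed by -0.24 in both sets of arrays (SE 0.06 as labelled), Gbp2, an interferon-induced GTPase, by -0.24 (SE 0.08) and -0.29, and Klrb1c (NK1.1), a receptor of NK cells, by -0.33 (SE 0.10) and -0.32. Hdc, the histamine-forming enzyme, which the lists count with neutrophils and with mast cells, differed by -0.31 (SE 0.09) and -0.40. No gene of these lists passed.

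Structural cell lists had medians near 0, as labelled and in the 13 arrays. These were -0.08 and -0.09 for alveolar type 2, -0.004 and 0.03 for alveolar type 1, -0.05 and -0.09 for club cells, -0.06 and -0.07 for ciliated cells and -0.04 and -0.06 for endothelium. The leading values as labelled were -0.18 for Lyz1, -0.12 for Hopx, -0.17 for Scgb3a2, -0.20 for Pifo of cilia and -0.31 for Sox18, a transcription factor of vessels, and in the 13 arrays they were -0.21, -0.15, -0.22, -0.23 and -0.43. In the extracellular matrix list Loxl1, which cross-links elastin, differed by -0.30 (SE 0.08) as labelled and by -0.39 in the 13 arrays (adjusted p = 0.0876). Cardiac muscle genes had the lowest median of all lists, -0.39 as labelled and -0.45 in the 13 arrays, with a mean that ran from -0.66 to 1.59 on the 3 h arrays and from -0.75 to 0.44 on the 6 h arrays.

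**Figure D3:**
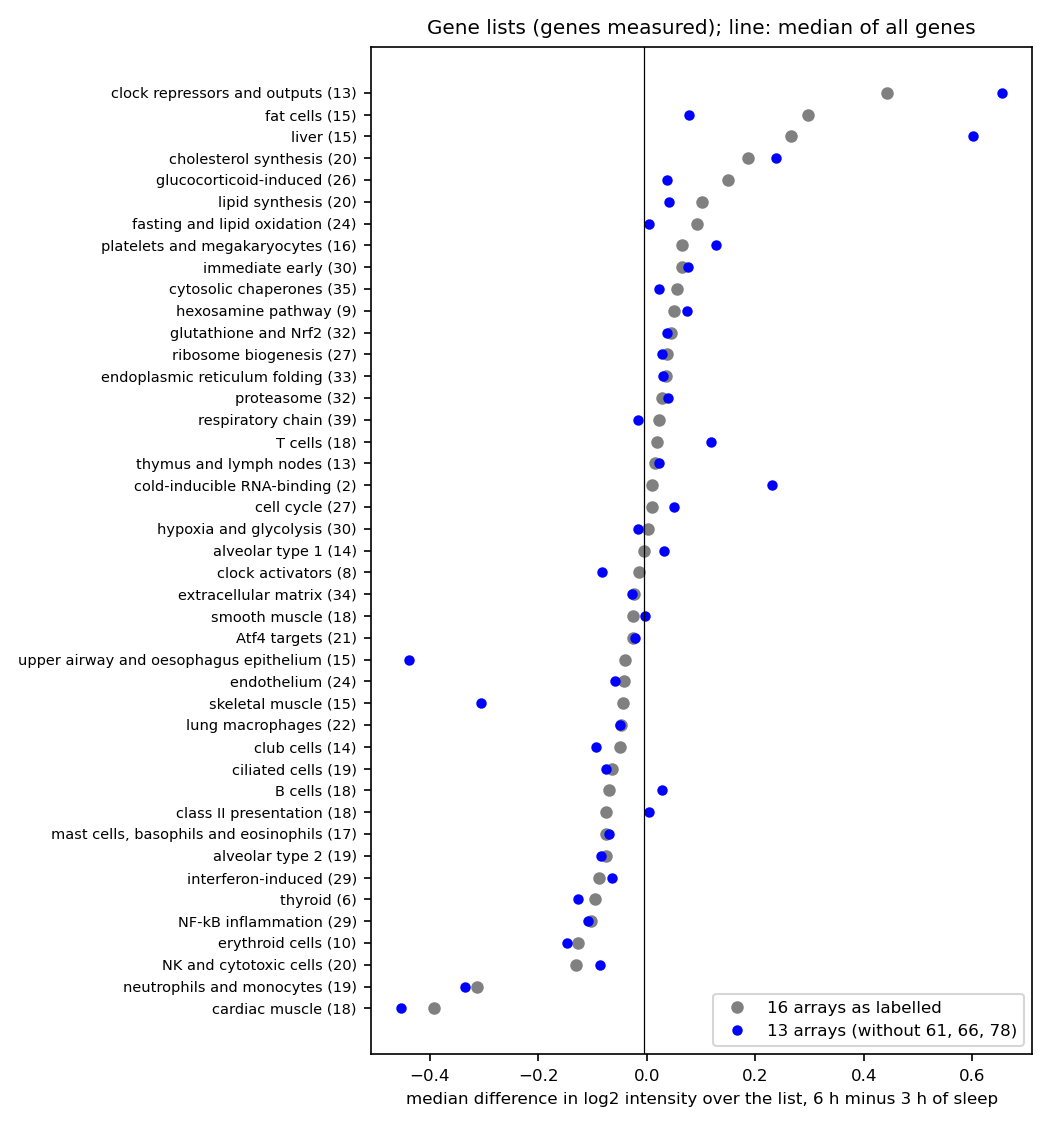
Median difference in log2 intensity between 6 h and 3 h of sleep (horizontal axis) over the genes of each of the 43 lists, with the number of genes measured in brackets, for 16 arrays (grey) and 13 arrays (blue). The list of clock repressors and outputs lies highest (0.44 and 0.66), and cardiac muscle (-0.39 and -0.45) and neutrophils and monocytes (-0.31 and -0.33) lie lowest among the grey points.

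Mice kept awake passed through the same hours of the day, and the step from 3 h to 6 h in the sleeping mice was tested against theirs. Over the 34 arrays as labelled, 1 probe set differed in its step (0.00281%), that of Lilra6 (0.00531% of all genes). Its 3 h arrays in sleep read 7.04 to 7.47 and its 6 h arrays 6.68 to 7.05, while under deprivation the arrays read 6.45 to 6.88 at 3 h and 6.74 to 7.17 at 6 h. Lilra6 thus differed by -0.40 in sleep and by 0.35 under deprivation, and the steps differed by -0.75 (SE 0.11, adjusted p = 0.00216). The next smallest p were those of S100a8 (-1.27, adjusted p = 0.0301), Csf3r (-1.23, adjusted p = 0.0348), Slfn4, an interferon-induced gene of myeloid cells (-1.01, adjusted p = 0.0348), and Fam229b (-0.43, adjusted p = 0.0348), which did not pass. Of the 19 neutrophil and monocyte genes, 12 lay below 0 at an unadjusted p under 0.05 (7.33% of all genes), and of the 35 cytosolic chaperones 24 lay above 0 (4.49%). In all 5 genes the step was negative in sleep and positive under deprivation.

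In these 4 groups, 7 arrays had a number that stood against the label under the alignment used here. Without them 27 arrays were left and 19 probe sets passed (0.0534%), 13 above 0 (0.0366%) and 6 below (0.0169%). By their brightest probe set 14 genes passed (0.0744%), 1 of them a small nucleolar RNA. Another 4 of the probe sets that passed had no single gene symbol. They included the largest difference, 2.44, which also had the smallest p (SE 0.23, adjusted p = 4.19e-06). Genes of neutrophils and monocytes lay below 0. S100a9 differed in its step by -1.46 (SE 0.23, adjusted p = 0.00405), Csf3r by -1.28 (SE 0.19, adjusted p = 0.00169), Mmp8, a collagenase of neutrophil granules, by -1.06 (SE 0.16, adjusted p = 0.00213), and Lilra6 by -0.79 (SE 0.12, adjusted p = 0.00258). The mean level of S100a9 went from 8.24 to 7.26 in sleep and from 7.30 to 7.77 under deprivation. Of the 19 neutrophil and monocyte genes, 12 lay below 0 at an unadjusted p under 0.05 (9.35% of all genes), and the median over the list was -0.61.

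Chaperones lay above 0 in this test. Under deprivation 10 of the 35 cytosolic chaperones passed on their own in the 14 arrays, and in sleep none did. Of all 18820 genes, 167 passed under deprivation in these arrays. By probe set the share was 0.681%, and 2.12% at an adjusted p under 0.05. Hsph1 went from 10.86 to 9.56 under deprivation and from 8.68 to 8.58 in sleep, a difference of 1.20 between the steps (SE 0.17, adjusted p = 0.000786). Dnaja1, a J-protein partner of Hsp70, differed by 0.90 (SE 0.14, adjusted p = 0.00226), and its second probe set by 1.17. Of the 35 cytosolic chaperones 23 lay above 0 at an unadjusted p under 0.05 (5.87% of all genes), as did 19 of the 33 folding genes of the endoplasmic reticulum, with medians of 0.33 and 0.19.

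Of the clock genes only Ciart passed this test in the 27 arrays. It differed by 0.60 in sleep and by -0.18 under deprivation (difference 0.78, SE 0.12, adjusted p = 0.00218), and in its second probe set by 0.89 (adjusted p = 0.0105). For the genes that moved most in sleep the steps ran the same way in both states. Npas2 differed by -2.14 in sleep and by -1.70 under deprivation (difference -0.44, SE 0.15, adjusted p = 0.143), and Arntl by -1.63 and -1.30 (difference -0.33, SE 0.17, adjusted p = 0.332). Per3 differed by 1.29 and 0.97 (difference 0.32, SE 0.12, adjusted p = 0.18), Hlf by 1.03 and 0.94 and Bhlhe41 by 1.05 and 0.995. A p that misses the threshold does not show that these steps were equal.

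Single genes of other kinds passed as well in the 27 arrays. Chek1, the kinase of the DNA damage checkpoint, differed by 0.66 (SE 0.08, adjusted p = 0.000253), with 0.30 in sleep and -0.37 under deprivation. Slc5a3, the inositol transporter that answers to osmotic stress, differed by 0.80 (SE 0.14), with 0.05 in sleep and -0.75 under deprivation, and Tmem117 by 0.57 (SE 0.09). Crem, a transcription factor that answers to cyclic AMP, differed by 0.65 (SE 0.11, adjusted p = 0.00833), with 0.19 in sleep and -0.46 under deprivation. Kcna2, a potassium channel, and Smtnl2, a relative of smoothelin, differed by -0.58 (SE 0.09) and -0.70 (SE 0.12).

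**Figure D4:**
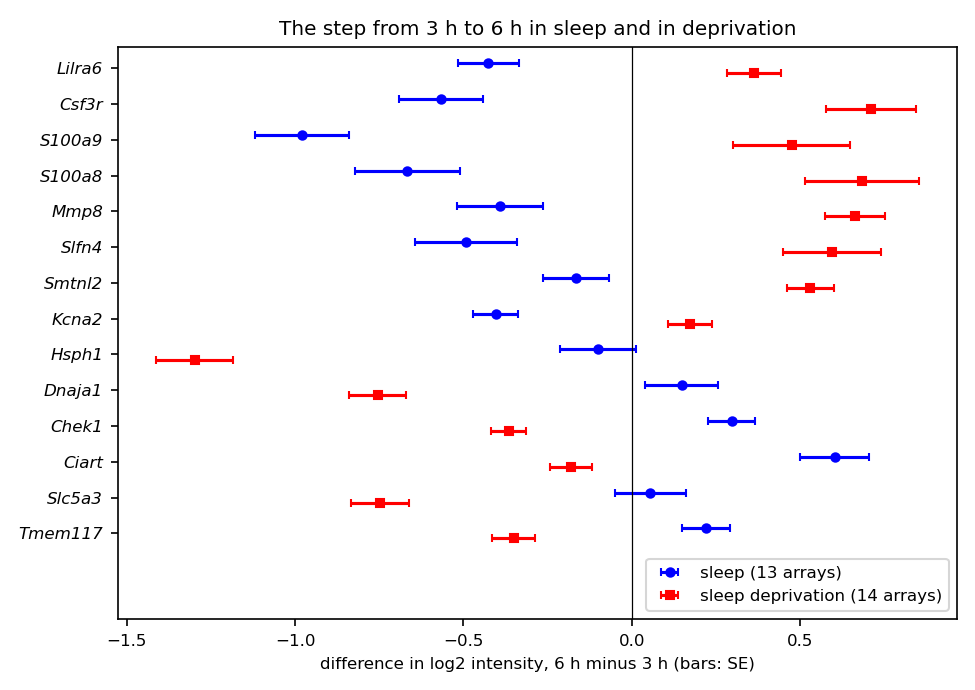
Step in log2 intensity from 3 h to 6 h (horizontal axis, bars are SE) in sleeping mice (blue circles, 13 arrays) and in sleep-deprived mice (red squares, 14 arrays) for 14 genes. Neutrophil genes such as S100a9 are negative in sleep (-0.98) and positive under deprivation (0.48), and Hsph1 and Dnaja1 are far below 0 only under deprivation.

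Set in the course of the light phase, the interval from 3 h to 6 h held the steepest part of several clock curves. Without array 81 and the arrays in doubt, the mean of Npas2 was 9.94 in baseline mice and then 9.39, 7.25, 6.33 and 6.43 after 3, 6, 9 and 12 h of sleep. Arntl went from 9.37 and 8.90 to 7.26, 6.03 and 5.78. Per3 went the other way, from 7.73 and 7.97 to 9.26, 9.93 and 10.19. Nr1d2 took the values 7.90, 9.14, 10.15, 10.40 and 10.32. For Nr1d2 the larger step fell between baseline and 3 h, and for Npas2, Arntl and Per3 between 3 h and 6 h. These levels are a description, and the steps between them were not tested against each other.

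**Figure D5:**
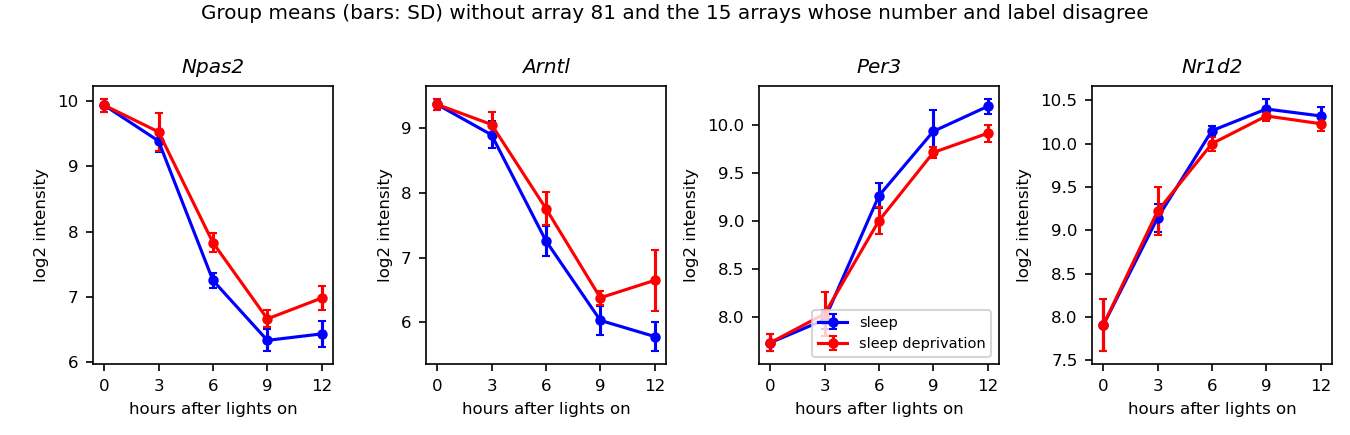
Mean log2 intensity (vertical axis, bars are SD) of 4 clock genes by hours after lights on (horizontal axis) in sleeping (blue) and sleep-deprived (red) mice, which share the baseline group, without array 81 and the 15 arrays in doubt. Npas2 falls from 9.39 to 7.25 and Per3 rises from 7.97 to 9.26 between 3 h and 6 h of sleep.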

How the data were processed

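Affymetrix Mouse Gene 1.0 ST arrays were hybridised with lung RNA, 1 array for each of 78 mice. The authors normalised all lung arrays together by RMA and deposited log2 intensity values whose decimal point is missing in the file used here. A point was set behind the leading digit, or behind the next one if the leading digit is 1, so that values lie between 2.27 and 13.85. Nothing else was normalised. The number of arrays limits the precision.

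Groups were taken from the labels. The members, gene lists, tests and alternatives were chosen with earlier results of these data known. Groups were compared with limma 3.58.1 (lmFit and eBayes, two-sided) in R 4.3.3, with Benjamini-Hochberg adjustment over 35556 probe sets and a threshold of 0.01. The study's own tool was not used here. A single gene symbol was given for 21218 probe sets (18820 genes), several for 1881 and none for 12457. A gene is shown by its brightest probe set over the 16 arrays. The 43 lists hold 883 measured genes.

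Named genes were the 10 largest changes in each direction among those past the threshold, all measured clock and cold-inducible genes, for other lists the members of smallest p, and the 5 smallest p of the test between steps. Further genes of the neutrophil, chaperone, liver and alveolar lists, and the genes with a differing step in the 27 arrays, were named after their values were seen. Small RNAs, predicted genes and probe sets without a single gene symbol were counted but not named.

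On simulated data with 200 changed probe sets, log2 changes of 0.25, 0.5, 1 and 2 were set. The fit recovered 1%, 61.5%, 90% and 96.5% of them with 16 arrays, and 0%, 49.5%, 85% and 97% with 13. The simulated noise was normal and independent between probe sets. It held neither the bands seen on the real arrays nor their varying liver, skeletal muscle and fat cell transcripts. The shares therefore do not tell what would be recovered from the real arrays. Alternatives were a block for the run of array numbers, fits over all groups or over baseline and sleeping groups, centring, a filter at a mean log2 of 6, weights per array, robust variances with a trend, a threshold of 0.05, and leaving out arrays. Motifs were searched with Python 3.11.15.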

Additional observations from a re-analysis of the deposited data

Results flagged for a closer look

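In groups of 4 to 10 arrays, the lowest or highest array can lie further from the others than Dixon's limit allows, which chance does in about 1 in 20 groups. Of 106 such groups (a gene or list in 1 of the 2 sleeping groups), 26 held an array beyond it. The genes looked at included those that passed only without arrays 61, 66 and 78. The count therefore cannot be set against the share that chance gives. In the 6 h group the array beyond the limit was array 66 each time. It stood high for Npas2 (9.61), Arntl (9.04), Nfil3 (7.77), Spon2 (8.79), Tmem171 (8.38), Dtx4 (9.33), Leo1 (7.06) and Hsph1 (10.48). It stood low for Per3 (8.03), Nr1d2 (8.94), Hlf (7.44), Bhlhe41 (7.39), Mthfd1l (6.42), Zfp346 (8.73), Cirbp (9.05) and Rbm3 (11.19). As a mean over list genes, array 66 lay at 0.5 for clock activators, 0.43 for cytosolic chaperones, 0.18 for folding in the endoplasmic reticulum and -0.38 for neutrophils and monocytes.

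In the 3 h group, array 61 stood high for Wee1 (8.95), Chek1 (6.1) and Tmem117 (7.05), array 76 stood apart for Clock (9.86) and Smtnl2 (9.81), and array 75 was high for neutrophils and monocytes (0.53).

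The step from 3 h to 6 h differed between sleep and deprivation for Lilra6 by -0.75 in 34 arrays and by -0.79 in 27 arrays. In the 27 arrays it also differed for Csf3r (-1.28), Mmp8 (-1.06), S100a9 (-1.46), Kcna2 (-0.58) and Smtnl2 (-0.7), and for Chek1 (0.66), Ciart (0.78), Crem (0.65), Dnaja1 (0.9), Hsph1 (1.2), Slc5a3 (0.8) and Tmem117 (0.57).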

How the results depend on the processing

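As labelled, 0 probe sets passed under every other alternative run and with each of the 16 arrays left out (0 to 0, also for genes in either direction), while without arrays 61, 66 and 78 there were 23 probe sets, 9 genes higher and 8 lower. The further alternatives on the 13 arrays were chosen after seeing the data. They gave 114 probe sets (36 genes higher, 50 lower) in the fit over all groups, 53 (22, 23) with baseline and sleeping groups, 38 (14, 15) with array weights and 57 (15, 27) at an adjusted p under 0.05. Centring gave 14 genes lower. Leaving out 1 of the 13 arrays gave 11 to 26 probe sets, 4 to 11 genes higher and 5 to 9 lower. The lowest numbers, 11, came without array 63 or 64. The number of probe sets with a differing step went from 1 to 19 without the 7 arrays in doubt, to 8 in the fit over all groups, to 15 with array weights and to 6 at an adjusted p under 0.05 (105 in the 27 arrays). The causes were not tested.

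Of 86 named genes, 12 turned sign at least in 1 alternative. Without arrays 61, 66 and 78 these were Cry1 (-0.016), Hsph1 (-0.10), Rbm3 (0.15) and Rorb (-0.039). With centring they were Cirbp (-0.011) and Rorb (-0.0083), and with array weights Rbm3 (0.0036). Within the run up to array 66 they were Cirbp (-0.15), Gnpnat1 (-0.13) and Rorb (-0.064). Within the run from array 67 they were Cenpe (-0.027), Cry1 (-0.16), Gp5 (-0.0057), Hsph1 (-0.33), Myh2 (-0.15), Rbm3 (0.12), Slc5a3 (-0.069), Tsc22d3 (-0.11) and Usp2 (-0.24). No paired analysis was possible because the number in each label belongs to 1 array and no number is shared between groups. Dim probe sets limit what can be seen, as the second probe sets of Nr1d2 and Leo1 show.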
